A study of Mus musculus with 4 samples.

Results

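The mitochondrial protein import machinery was examined in RNA-seq counts of embryonic mouse retina with and without Nrf1, the nuclear respiratory factor that regulates genes of mitochondrial biogenesis. The members were the genes whose symbol in the count table begins with Tomm or Timm and a digit, without pseudogene symbols, together with Pam16, Samm50, Mtx1, Mtx2, Mtx3, Pmpca, Pmpcb and Chchd4. This rule used symbols and no measured value, and it gave 33 of the 24062 genes in the table. The retinas came from embryos at E13.5 on a mixed C57BL/6 and 129 background, with 2 wildtype (WT) libraries and 2 libraries of the conditional knockout (Nrf1-CKO). In the knockout the Six3-Cre transgene, which is active in progenitors of the central retina, deletes exon 4 of a floxed Nrf1 allele on both chromosomes (Nrf1 f/f;Six3-Cre), so that peripheral cells and cells of other lineages can keep the gene. RNA was pooled from retinas of several littermates. The labels do not say whether the 2 libraries of a genotype came from separate pools. The edgeR p-values rest on the spread between these libraries, which edgeR moderates with the spread of other genes. The libraries of a genotype did not hold the same mix of RNA, since the Y-linked Uty was at 37.6 and 18.9 CPM (counts per 1e6 reads on genes) in the WT libraries and lens markers differed between the Nrf1-CKO libraries.

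Nearly all mitochondrial proteins are made in the cytosol and have to be imported. The TOM complex is the entry gate of the outer membrane, and the SAM complex inserts barrel-shaped proteins into that membrane. Small TIM chaperones carry hydrophobic proteins across the intermembrane space, and Chchd4 folds proteins there by forming disulfide bonds. TIM22 inserts carrier proteins into the inner membrane, while TIM23 and its motor pull proteins with a presequence into the matrix, where the processing peptidase cuts the presequence off. Nrf1 binds GC-rich elements in promoters, and genes of the import receptors, such as TOMM20 in human cells, have been described as targets of Nrf1 and of the ETS factor GABP.

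The promoters of the members are shown first, because the deleted gene encodes a promoter-binding factor. RefSeq windows from 250 bases before to 50 bases after the gene start, on GRCm38.p6, were available for 30 members. The letters GCGCANGCG, part of the palindrome known for Nrf1, were searched on both strands. They were present in 5 of the 30 members (16.7%), in 7.03% of the 27025 genes with a window and in 6.25% of the 32851 windows. The 5 stretches of 30 bases around the match are given on the strand of the gene, with the matched letters in capitals.
Tomm20, chr8:126945921-126945950, minus strand: ggtccatctgCGCGTGCGCaccaggcgttc
Timm8b, chr9:50603910-50603939, plus strand: gctgccaccgCGCGTGCGCaccccagcgaa
Timm13, chr10:80901143-80901172, minus strand: ttatattgtaCGCATGCGCagcggggaggt
Chchd4, chr6:91473599-91473628, minus strand: ttcactggtgCGCGTGCGCgctgcaagatt
Pam16, chr16:4624942-4624971, minus strand: tcgcgtccttGCGCACGCGctctccggtct
The first capital letter lay 19 bases before the gene start in Tomm20, 15 before it in Pam16, 193 before it in Timm13 and 195 before it in Chchd4, and at base 20 of the transcribed side in Timm8b, counted from the RefSeq start as base 1. These 5 genes encode an import receptor, 2 small TIM chaperones, the oxidoreductase Chchd4 and a subunit of the import motor.

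The letters CCGGAAGT, a core that ETS factors such as GABP bind, were present in 8 of the 30 members (26.7%), namely Mtx2, Mtx3, Pmpcb, Timm10, Timm10b, Timm23, Timm8a2 and Tomm70a, and in 4.31% of the genes with a window and 3.89% of the windows. No member held both sets of letters, so that 13 members held one of them and 17 held neither. The stretches of the receptor gene Tomm70a, the peptidase gene Pmpcb and the metaxin gene Mtx2 are given to show their position close to the start.
Tomm70a, chr16:57121623-57121652, plus strand: gccttctgaccCCGGAAGTggttctcccct
Pmpcb, chr5:21737133-21737162, plus strand: ggagtcatgacCCGGAAGTacatctccact
Mtx2, chr2:74825776-74825805, plus strand: gggcggagcagCCGGAAGTgccggcgcgcg
A match is a stretch of letters and does not show binding. Tomm40l, Tomm7 and Timm21 had no window.

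Depth was similar, with between 74577660 and 85933945 reads counted on genes in each library. CPM values were scaled with edgeR's TMM factors. The gene-level count of Nrf1 was 9052 and 7789 in the WT libraries and 8594 and 8284 in the Nrf1-CKO libraries. The table holds no counts by exon, so the deletion of 1 exon could not be checked from it. Markers of retinal progenitors were present at summed levels of 2476 and 2661 CPM in WT and 2386 and 2596 CPM in Nrf1-CKO, and 0 of their 8 genes were called changed by edgeR. Markers of retinal ganglion cells were lower, from 1522 and 1755 to 595 and 462 CPM, with 8 of 8 called. Lens markers were at 123 and 332 CPM in WT and at 7021 and 2832 CPM in Nrf1-CKO (6 of 6 called higher), and macrophage and microglia markers were at 63.8 and 57.2 against 191 and 229 CPM (6 of 6 called higher). Of 5 pigment epithelium markers tested, 4 were called higher, and of 5 photoreceptor precursor markers, 1 was called lower. Of 4 endothelium markers, 3 were called higher and Kdr lower, and both erythroid markers tested were called higher. The part of these differences in cell makeup in the results on the import genes was not tested. In such bulk samples, fewer cells of a type and less RNA per cell cannot be told apart.

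No import gene was called changed in the Nrf1-CKO retina, and for most of them the 95% interval in edgeR lay within 1.4-fold. The study's thresholds were used for calls, with a change of 1.4-fold or more in either direction and an adjusted p no higher than 0.2 in edgeR's quasi-likelihood test with Benjamini-Hochberg adjustment over 15762 genes. Of the 32 members tested, 0 were called lower, beside 8.04% of all tested genes, and 0 were called higher, beside 12.8% of all tested genes. DESeq2, and limma on the deposited normalized values, also called 0 members. At an unadjusted p under 0.05 there were 3 members in each of the 3 tools, where edgeR had 34.8% of all tested genes. Among the 10037 genes that averaged at least 10 CPM, a range that holds 27 members, 6.78% were called lower and 5.98% higher.

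The members summed to 1445 CPM in both WT libraries, and to 1391 and 1436 CPM in the Nrf1-CKO libraries. Their median log2 fold change was 0.0026, beside 0.00073 over all tested genes, with 15 members below 0 and 17 above. In 22 members the log2 fold change lay within 0.1 of 0, as it did in 27.5% of all tested genes, a share not matched for level. The 95% interval of the fold change lay wholly within 1.4-fold in both directions in 27 members, against 46.6% of all tested genes, which include many genes at low levels. The 5 members whose interval reached beyond 1.4-fold were Timm21, Pam16, Timm8a1, Timm8a2 and Tomm6os. In this edgeR fit, only for these 5 did the interval reach a change of the size the thresholds ask for. The interval of Timm23 came close, with an upper end of 0.470 beside a limit of 0.485 on the log2 scale.

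**Figure D1:**
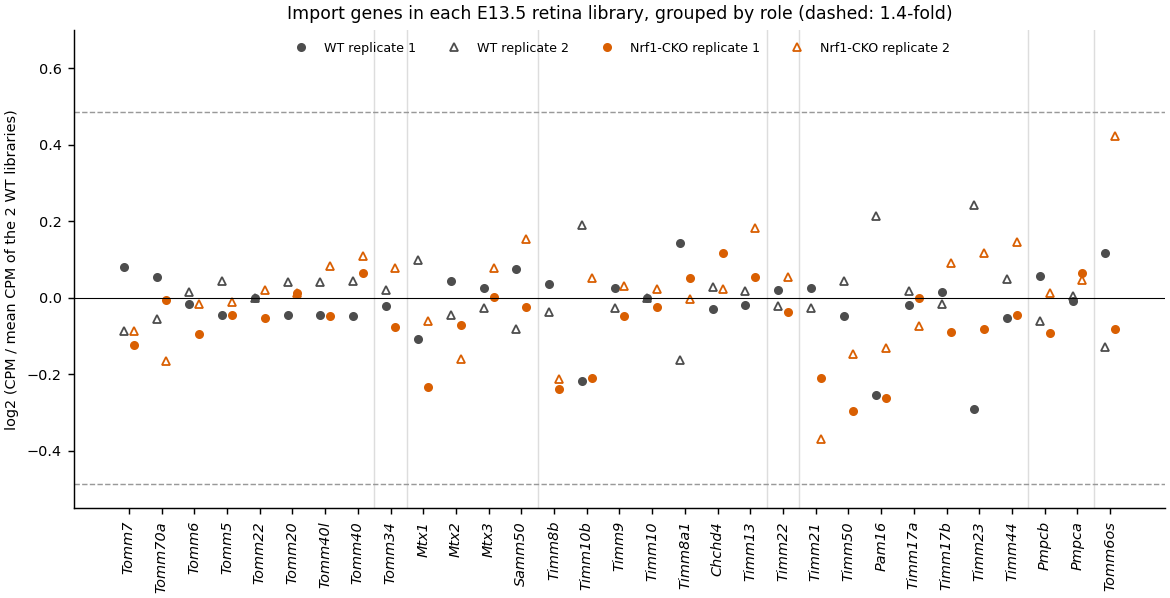
Level of 31 import genes in each library, as the log2 of its CPM over the mean CPM of the 2 WT libraries, grouped by role from the TOM complex (left) to the matrix peptidase and the antisense RNA (right). Grey symbols are WT and orange symbols are Nrf1-CKO, circles are replicate 1 and triangles replicate 2. Every point lies within the dashed lines at 1.4-fold, and in Timm21, Timm50 and Timm8b both orange symbols lie below both grey ones. Timm8a2 and Tomm20l, with few reads, are left out.

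**Figure D2:**
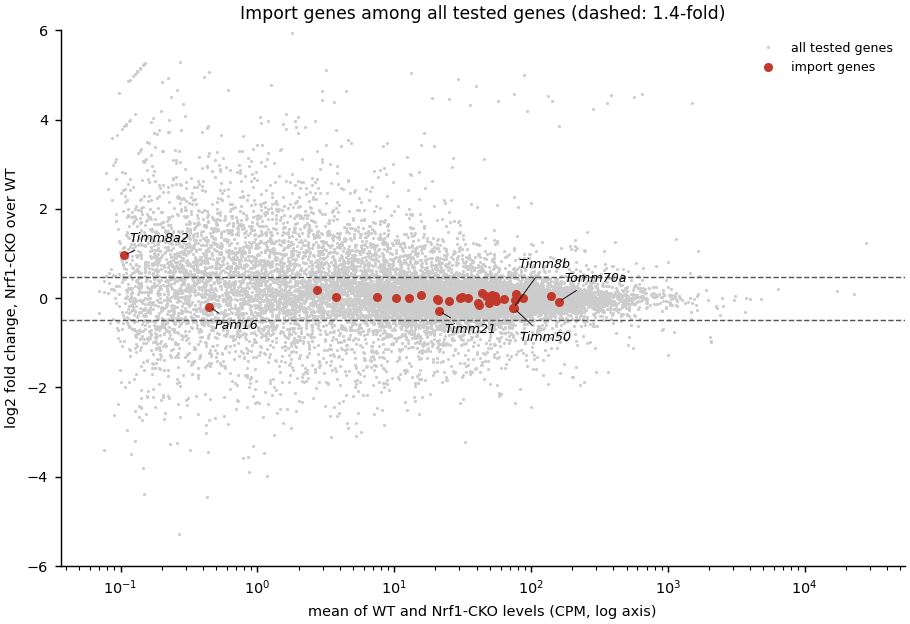
Log2 fold change of Nrf1-CKO over WT against the mean level in CPM (log axis) for all 15762 tested genes in grey and the 32 tested import genes in red. Dashed lines mark 1.4-fold. The import genes lie in a narrow band around 0 except Timm8a2 at the lowest level, and 16 grey genes lie outside the plotted range of 6 in either direction.

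At an adjusted p of at most 0.05 with any fold, 0 members were lower and 0 were higher in edgeR, beside 10.9% and 11.9% of all tested genes. At an adjusted p of at most 0.2 with any fold, 3 members were lower (Timm21, Timm8b and Timm50) and 0 were higher, beside 19.5% and 20.4% of all tested genes. These 3 members were also the ones at that level in DESeq2 and in limma. They are a chaperone of the intermembrane space and 2 subunits of the inner-membrane translocase TIM23, and their levels in Nrf1-CKO were between 82.0% and 85.9% of WT.

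Timm21, a TIM23 subunit that links the translocase to the respiratory chain and to TOM, is on chromosome 18 of GRCm38 from 84946191 to 84951524. It was at 23.8 and 22.97 CPM in the WT libraries and at 20.3 and 18.1 CPM in the Nrf1-CKO libraries. Both knockout libraries were below both WT libraries. The log2 fold change was -0.29 (standard error 0.11, 95% interval -0.53 to -0.047, adjusted p = 0.0861 in edgeR). Leaving out single libraries moved it between -0.37 and -0.21, with an adjusted p in edgeR of 0.0555 without Nrf1-CKO replicate 1 and above 0.2 when any other library was left out (0.292 without WT replicate 1, 0.206 without WT replicate 2 and 0.308 without Nrf1-CKO replicate 2).

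Timm50, the receptor of TIM23 that takes over presequences from TOM, is on chromosome 7 from 28305516 to 28312072. Its levels were 78.0 and 83.1 CPM in WT and 65.6 and 72.8 CPM in Nrf1-CKO. The genotypes did not overlap, and replicate 2 of Nrf1-CKO was nearer to WT. The log2 fold change was -0.22 (standard error 0.084, 95% interval -0.41 to -0.029, adjusted p = 0.0967 in edgeR). Without Nrf1-CKO replicate 2 it was -0.30 with an adjusted p of 0.0359 in edgeR, and without Nrf1-CKO replicate 1 it was -0.15 with an adjusted p of 0.320.

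Timm8b, a small TIM chaperone and one of the 5 members with the Nrf1 letters at its start, is on chromosome 9 from 50603910 to 50605320 in GENCODE, whose start lies downstream of the RefSeq start used for the promoter window. It was at 82.0 and 77.9 CPM in WT and at 67.8 and 69.0 CPM in Nrf1-CKO, so that the libraries of each genotype lay close together and apart from the other genotype. Its log2 fold change was -0.22 (standard error 0.075, 95% interval -0.40 to -0.055, adjusted p = 0.0629 in edgeR). Leaving out single libraries moved it between -0.26 and -0.18. The annotation places an exon of Nkapd1, on the opposite strand, over 15.6% of its exon bases. Without WT replicate 1, 0 members had an adjusted p of at most 0.2 in edgeR, and without WT replicate 2 Timm8b alone did. Without Nrf1-CKO replicate 2, Timm8b, Timm50 and Mtx1 (adjusted p = 0.180 in edgeR) did.

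**Figure D3:**
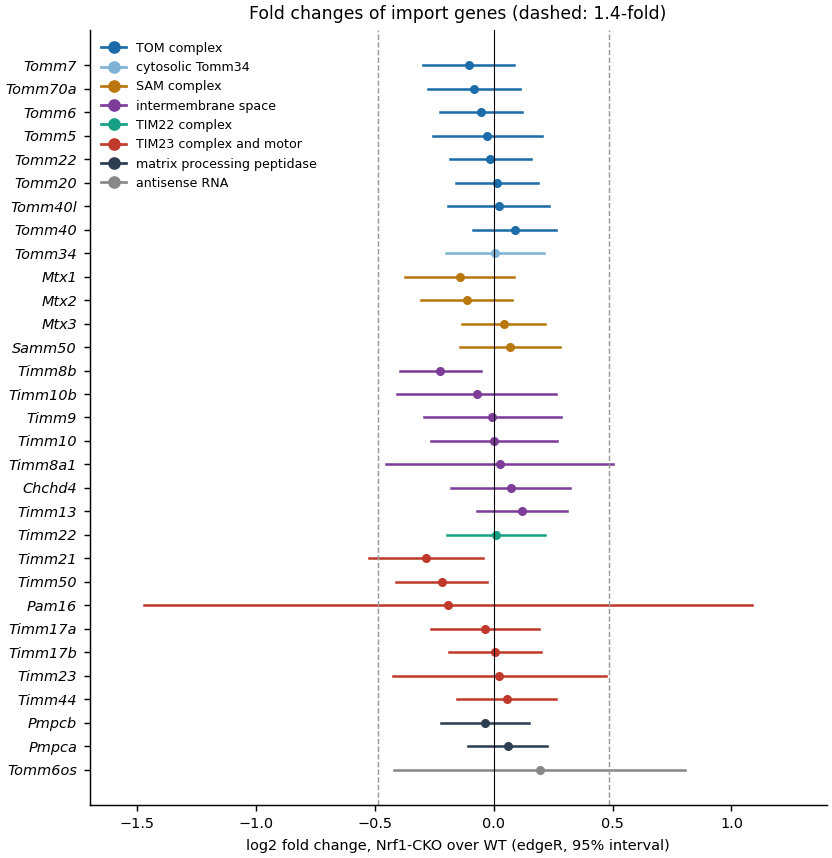
Log2 fold change of Nrf1-CKO over WT with its 95% interval from edgeR for 31 import genes, coloured by role. Dashed lines mark 1.4-fold. The intervals of Timm21, Timm50 and Timm8b lie below 0, and those of Pam16, Timm8a1, Timm21 and Tomm6os cross a dashed line. Timm8a2, whose interval runs from -2.18 to 4.09, and the untested Tomm20l are left out.

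In the TOM complex, 8 of 9 members were tested and 0 were called. Their log2 fold changes ran from -0.11 to 0.087 with a median of -0.021, and they summed to 551 and 548 CPM in WT and 542 and 538 CPM in Nrf1-CKO. Tomm40, the pore of the complex, was at 73.2 and 78.1 CPM in WT and 79.1 and 81.6 CPM in Nrf1-CKO, the highest fold change of the group (log2 0.087, standard error 0.077, adjusted p = 0.473 in edgeR). With a trend on transcript length and GC removed, Tomm20 (0.092) was above Tomm40 (0.070). Tomm7, a small subunit, had the lowest fold change of the group, with 53.8 and 48.0 CPM in WT and 46.7 and 47.9 CPM in Nrf1-CKO (log2 -0.11, standard error 0.085, adjusted p = 0.429 in edgeR). Leaving out single libraries moved Tomm7 between -0.18 and -0.016, and without WT replicate 1 or Nrf1-CKO replicate 1 it was no longer the lowest of the group. The groups did not overlap in either gene, though the Tomm7 levels of WT replicate 2 and Nrf1-CKO replicate 2 were nearly equal.

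Tomm20, the receptor for presequences and one of the members with the Nrf1 letters, was at 83.7 and 89.0 CPM in WT and 87.1 and 87.2 CPM in Nrf1-CKO. Both knockout libraries lay between the WT libraries, and the log2 difference was 0.013 (standard error 0.076, 95% interval -0.16 to 0.18, adjusted p = 0.927 in edgeR). Tomm22, the central receptor, was at 64.2 CPM in both WT libraries and at 62.0 and 65.2 CPM in Nrf1-CKO. Tomm70a, the receptor for carrier proteins, was at 170 and 157.5 CPM in WT and at 163 and 146 CPM in Nrf1-CKO (log2 -0.083, adjusted p = 0.551 in edgeR). Its log2 fold change was -0.16 without Nrf1-CKO replicate 1 and -0.0067 without Nrf1-CKO replicate 2. Tomm5, Tomm6 and Tomm40l had log2 fold changes of -0.028, -0.054 and 0.020. Other genes cover 93.3% of the exon bases of Tomm6 and 69.7% of those of Tomm40l, so their counts depend on how shared reads were treated. Tomm20l, a paralog of Tomm20, had 0 reads in both WT libraries and 0 and 2 reads in Nrf1-CKO and was not tested.

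Tomm34, a cytosolic co-chaperone that despite its name is no TOM subunit, was at 34.2 and 35.2 CPM in WT and at 33.0 and 36.7 CPM in Nrf1-CKO (log2 0.0045). Tomm6os, an antisense RNA at the Tomm6 locus, was at 2.76 and 2.33 CPM in WT and at 2.41 and 3.42 CPM in Nrf1-CKO, and its genotypes overlapped (log2 0.19, standard error 0.27). Since the strand setting of the counting is not given, reads of Tomm6 and Tomm6os cannot be told apart with certainty.

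In the SAM complex, 0 of 4 members were called, with log2 fold changes from -0.14 to 0.067. Mtx1, a metaxin, was at 40.4 and 46.6 CPM in WT and 37.1 and 41.7 CPM in Nrf1-CKO (log2 -0.14, standard error 0.10, adjusted p = 0.361 in edgeR), and its libraries overlapped. With single libraries left out, Mtx1 ran from -0.24 to -0.033. Without WT replicate 2 or Nrf1-CKO replicate 1, Mtx2 was the lowest of the group. Mtx2, the partner metaxin, was at 43.9 and 41.3 CPM in WT and 40.6 and 38.1 CPM in Nrf1-CKO (log2 -0.11, standard error 0.084, adjusted p = 0.382 in edgeR), without overlap. Samm50, the barrel that forms the core of the complex, was at 53.6 and 48.1 CPM in WT and 49.98 and 56.5 CPM in Nrf1-CKO. Mtx3 had a log2 fold change of 0.042.

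In the intermembrane space, 0 of 8 members were called, with a median log2 fold change of 0.013. Timm13, the partner of the Timm8 proteins and like Timm8b a gene with the Nrf1 letters, was at 41.8 and 42.8 CPM in WT and at 43.9 and 48.0 CPM in Nrf1-CKO (log2 0.12, standard error 0.083, 95% interval -0.069 to 0.31, adjusted p = 0.350 in edgeR). Its log2 fold change was 0.052 without Nrf1-CKO replicate 2 and 0.18 without Nrf1-CKO replicate 1. Thus the values of Timm8b and Timm13 differed in sign, and no test of their difference was run. Chchd4 was at 15.1 and 15.8 CPM in WT and at 16.8 and 15.7 CPM in Nrf1-CKO, with overlap between genotypes (log2 0.071). The hexamer partners Timm9 and Timm10 had log2 fold changes of -0.0064 and 0.00073, and Timm10 was at 12.8 CPM in both WT libraries and at 12.6 and 13.02 CPM in Nrf1-CKO. Timm10b was at 22.2 and 29.5 CPM in WT and at 22.4 and 26.8 CPM in Nrf1-CKO, so that the 2 replicates differed more than the genotypes. In Timm8a1 the log2 value was 0.024, with a standard error of 0.21. Timm8a1 and the TIM23 gene Timm17b are on the X chromosome, and 2 of 5 sex-linked transcripts, the Y-linked Ddx3y and Eif2s3y, were called higher in Nrf1-CKO. Ddx3y was at 31.9 and 16.4 CPM in WT and at 51.1 and 33.1 CPM in Nrf1-CKO. The Y-linked Kdm5d (log2 0.19, adjusted p = 0.627 in edgeR) and Uty (log2 0.20, adjusted p = 0.666 in edgeR) were not called, nor was Xist, at 489 and 781 CPM in WT and 504 and 476 CPM in Nrf1-CKO. The part of sex in their values was not tested. Timm8a2 had 1 and 10 reads in WT and 22 and 1 reads in Nrf1-CKO, too few for a direction.

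Timm22, the channel of the carrier translocase, was at 30.5 and 29.6 CPM in WT and at 29.3 and 31.2 CPM in Nrf1-CKO (log2 0.0091, standard error 0.090). Its partner Timm29 is listed under the older symbol 1810026J23Rik and so was no member by the rule. It was at 69.4 and 72.4 CPM in WT and at 72.8 and 66.4 CPM in Nrf1-CKO, with overlap.

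In TIM23 and its motor, 0 of 7 members were called, and log2 fold changes ran from -0.29 in Timm21 to 0.054 in Timm44, with a median of -0.036. The 7 genes summed to 228 and 238 CPM in WT and to 210.0 and 228 CPM in Nrf1-CKO. The paralogs Timm17a and Timm17b, alternative subunits of the channel, had log2 fold changes of -0.036 and 0.0049. Timm23, the channel protein, was at 6.08 and 8.79 CPM in WT and at 7.03 and 8.06 CPM in Nrf1-CKO, and WT replicates differed more than genotypes. In Timm23, 57.5% of the 50-base words of its exons also occur in other annotated genes, and reads that fit several places were left out of gene counts. Timm44, which anchors the motor, was at 44.7 and 47.9 CPM in WT and at 44.9 and 51.2 CPM in Nrf1-CKO. Pam16, a regulator of the motor chaperone, had only 35 and 41 reads in WT and 33 and 36 in Nrf1-CKO, and 35.7% of its words are shared with other genes.

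The subunits of the matrix processing peptidase did not pass the test. Pmpca was at 135.5 and 137 CPM in WT and at 143 and 141 CPM in Nrf1-CKO, without overlap and at 104% of WT in the mean (log2 0.058, standard error 0.073, adjusted p = 0.631 in edgeR). Pmpcb, the catalytic subunit and one of the members with the ETS letters, was at 81.0 and 74.6 CPM in WT and at 73.0 and 78.5 CPM in Nrf1-CKO, with overlap (log2 -0.038, standard error 0.082).

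All Nrf1-CKO libraries were below all WT libraries in 5 members (Timm21, Timm8b, Timm50, Mtx2 and Tomm7), beside 31.6% of all tested genes, and above them in 3 members (Pmpca, Tomm40 and Timm13), beside 30.9% of all tested genes. In the other 24 tested members the libraries overlapped. The knockout libraries also differed from each other. The median difference of the members' log2 CPM from WT replicate 1 was -0.052 in Nrf1-CKO replicate 1 and 0.048 in replicate 2, and from WT replicate 2 it was -0.030 and 0.0096.

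Levels of different members can be compared only per length, as CPM per kb of merged exon sequence in GRCm38. Timm8b led in both genotypes (154 ± 5.54 in WT and 132 ± 1.63 in Nrf1-CKO, SD, n = 2), followed in WT by Tomm6 (71.0 ± 1.17) and Timm50 (53.2 ± 2.39). Pmpcb (48.2 ± 2.82), Tomm40 (45.2 ± 2.06) and Tomm7 (45.2 ± 3.68) came next in WT and did not differ beyond their spread. Among the receptors, Tomm22 (38.9 CPM per kb) was above Tomm70a (27.5) and Tomm20 (17.6) in WT. Timm17b (22.6 ± 0.37) was above its paralog Timm17a (2.90 ± 0.050) per kb, with merged exon lengths of 2.381 and 7.28 kb. Before division by length their WT means were 53.8 and 21.1 CPM. The merged length counts annotated exons whether or not they are used in this retina. In the Timm8 family, Timm8b was above Timm8a1 (2.63) and Timm8a2 (0.080) in WT. In Timm8a1, 41% of the 50-base words also occur in another annotated gene, so its count can be too low.

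**Figure D4:**
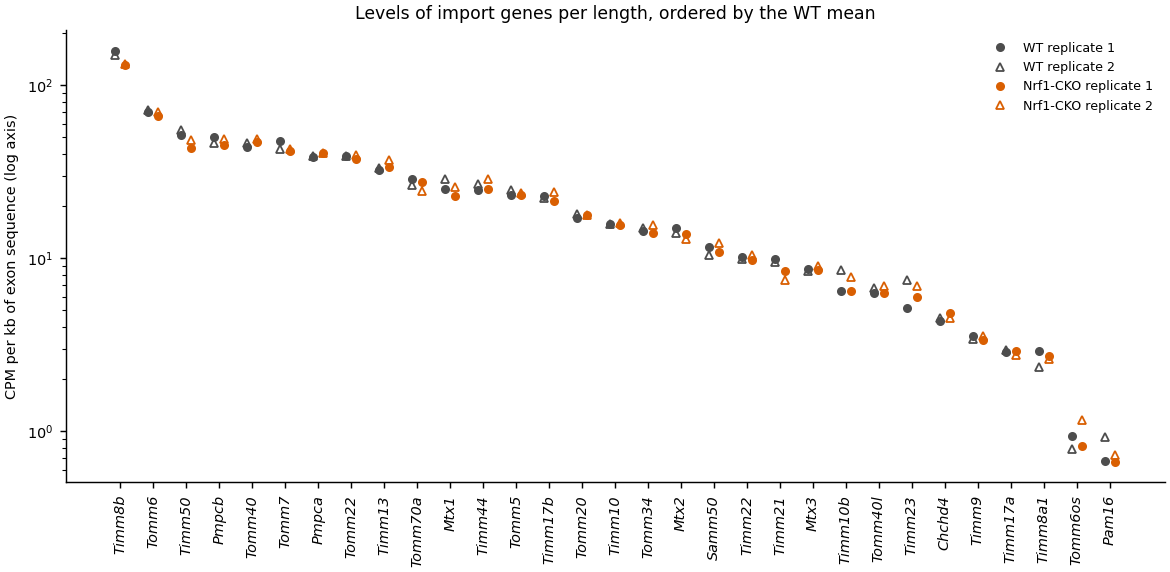
Level of 31 import genes in CPM per kb of exon sequence (log axis) in each library, ordered by the WT mean. Levels run from 154 CPM per kb in Timm8b to 0.799 in Pam16 in WT, and the orange symbols of Nrf1-CKO follow the grey symbols of WT along the whole order.

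Among all tested genes with a promoter window, the 1576 with the Nrf1 letters were called lower in 10.9% and higher in 2.73% (median log2 fold change -0.11), and the 10026 without them in 7.15% and 14.1%, with a median of 0.019. The 5 members with these letters had log2 fold changes of 0.013 (Tomm20), -0.22 (Timm8b), 0.12 (Timm13), 0.071 (Chchd4) and -0.19 (Pam16), and 0 of them were called. The 910 tested genes with the ETS letters were called lower in 2.64% and higher in 2.31%, with a median of -0.036, and 0 of the 8 members with these letters were called.

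Import genes outside the rule comprised chaperones, proteases, insertases and other partners of the translocases. Of 19 tested, 0 were called, 10 had a log2 fold change below 0 and 9 above, and the median was -0.050. Hspa9, the chaperone that drives the import motor, had a log2 fold change of 0.063, and its exchange factor Grpel1 one of -0.11. Oxa1l, which inserts proteins into the inner membrane from the matrix, was the 1 gene of the 19 at an adjusted p of at most 0.05, where 10.9% of all tested genes were lower and 11.9% higher. It was at 71.8 and 74.8 CPM in WT and 60.3 and 62.9 CPM in Nrf1-CKO (log2 -0.25, standard error 0.076, adjusted p = 0.0431 in edgeR). Of the 8 genes of MICOS and its bridging complex, which shape the cristae and contact SAM, 0 were called and 0 had an adjusted p of at most 0.05. Immt, the core of MICOS, had a log2 fold change of -0.19 (adjusted p = 0.107 in edgeR), and Apool had -0.27 (adjusted p = 0.0838 in edgeR).

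**Figure D5:**
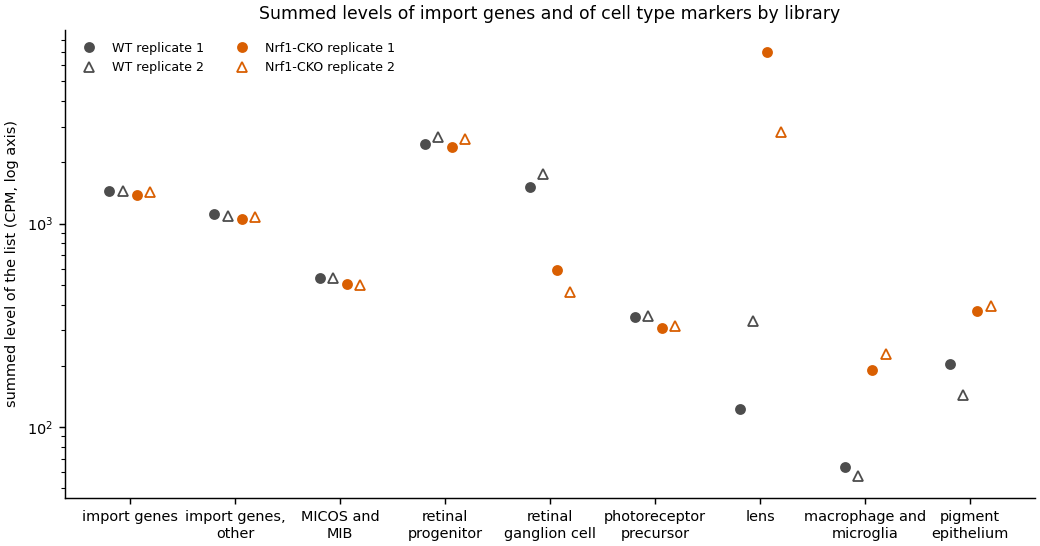
Summed level in CPM (log axis) of the import genes, other import genes, MICOS and markers of cell types in each library. Grey symbols are WT and orange symbols are Nrf1-CKO, circles are replicate 1 and triangles replicate 2. The import genes lie between 1391 and 1445 CPM in the 4 libraries, while ganglion cell markers are lower and lens, macrophage and pigment epithelium markers are higher in Nrf1-CKO.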

How the data were processed

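Total RNA of E13.5 retinas was sequenced in 4 libraries. Reads were aligned by the authors to mm10 (TopHat2, 2.7.2 per the submitters' processing notes), who deposited whole-number counts per gene from HTSeq. The authors also deposited normalized values on a log2 scale. The notes name DESeq and limma as well, without saying which step they served, so how the values were normalized is not given in the sources used here. Annotation release and strand setting are not given either. HTSeq's summary rows, between 74.0% and 75.0% of entries, stayed out of library sizes and tests. Columns were assigned to libraries by name, where Mut and Ctrl stand for Nrf1-CKO and WT.

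Genes passing filterByExpr (minimum count 10) were scaled with TMM and tested with edgeR 4.0.16 (quasi-likelihood, R 4.3.3), with Benjamini-Hochberg adjustment. The study's own differential step, Cuffdiff, needs aligned reads and was not repeated. The paper reports fewer lower and fewer higher genes from it than edgeR called here. Shares of all tested genes given above are those of edgeR. Intervals cover counting error and the spread of 2 libraries per genotype, moderated across genes in edgeR, and PCR copies are not independent molecules. Within each genotype the 2 libraries differed far beyond sampling noise (chi-square per gene 46.7 in WT and 58.8 in Nrf1-CKO, 1 degree of freedom). The scripts were tested on simulated data. Alternatives were DESeq2 1.42.0, limma 3.58.1 on the deposited values, other scalings, filters and thresholds, a replicate block, removal of the length and GC trend (loess span 0.3), and each library left out. Lengths and overlaps come from GENCODE on GRCm38, promoters from RefSeq. Every tested member could be named. Per-library values were given by rule to those with an adjusted p of at most 0.05 and to the lowest and highest fold change of each role group, and other members given per library were chosen after their values were seen. Members and lists were chosen with earlier results of these data known. A planned description of protein sequences was not run.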

Additional observations from a re-analysis of the deposited data

How the results depend on the processing

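At 1.4-fold and an adjusted p of 0.2, no import gene was called in either direction under the other tools, scalings and filters, the replicate block, the length and GC trend removed or each library left out (0 to 0 called lower and 0 to 0 called higher). Without a minimum fold the count depended on the threshold, with 3 members at an adjusted p of 0.2 and 0 at 0.05 in edgeR. When each library was left out, the median log2 fold change of the import genes lay between -0.049, without Nrf1-CKO replicate 2, and 0.023, without Nrf1-CKO replicate 1, and the cause was not tested. Under the other alternatives it lay between -0.017 with library size only and 0.042 with upper-quartile scaling. Replicate numbers were not treated as pairing the libraries: no label says that they do, and the deviations of the same numbers had a correlation of -0.0025, which with 2 libraries per genotype is a single value. At an adjusted p of at most 0.05 with any fold, 1 member passed with a replicate block (Timm8b, adjusted p 0.05, log2 -0.22) and 1 without Nrf1-CKO replicate 2 (Timm50, adjusted p 0.0359). Over all genes at 1.4-fold and an adjusted p of 0.2, edgeR called 1268 lower and 2024 higher. Across the alternatives at these thresholds the calls ran from 723, with limma on the deposited values, to 1402 lower, without Nrf1-CKO replicate 1, and from 945, with limma, to 2167 higher, with upper-quartile scaling. Upper-quartile scaling moved the median of all genes to 0.040 and scaling by library size to -0.019.

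Values near 0 changed sign under these shifts. With library size only they were -0.019 (Timm10), -0.015 (Timm17b), -0.011 (Timm22), -0.0063 (Tomm20) and -0.015 (Tomm34). With upper-quartile scaling they were 0.0018 (Pmpcb), 0.0040 (Timm17a), 0.033 (Timm9), 0.025 (Tomm22) and 0.012 (Tomm5). With the length and GC trend removed they were 0.029 (Pmpcb), -0.065 (Timm10), 0.057 (Timm17a), -0.011 (Timm17b), 0.0036 (Timm9) and -0.023 (Tomm34). When each library was left out, log2 fold changes ran from -0.40 to 0.062 in Pam16, -0.093 to 0.027 in Pmpcb, -0.027 to 0.15 in Samm50, -0.024 to 0.024 in Timm10, -0.26 to 0.15 in Timm10b, -0.090 to 0.093 in Timm17b, -0.040 to 0.056 in Timm22, -0.22 to 0.32 in Timm23, -0.046 to 0.15 in Timm44, -0.12 to 0.19 in Timm8a1, -0.048 to 0.033 in Timm9, -0.026 to 0.061 in Tomm20, -0.053 to 0.022 in Tomm22, -0.076 to 0.080 in Tomm34, -0.049 to 0.085 in Tomm40l, -0.068 to 0.021 in Tomm5 and -0.085 to 0.42 in Tomm6os. Of 350 single-gene values from alternatives with a fit of their own, 313 kept their direction and 37 changed sign. The removal of the length and GC trend, which kept the adjusted p of the untrended fit, is not among them. With 2 libraries per genotype, some 95% intervals in edgeR reached well beyond 1.4-fold. They were -1.47 to 1.09 in Pam16, -2.18 to 4.09 in Timm8a2 and -0.42 to 0.81 in Tomm6os. The interval of Timm8a1 ran from -0.45 to 0.50. The smallest change that could be detected was not tested.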
